A study of Mus musculus with 2 samples.

Results

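H19-positive hepatocytes were studied in a single-cell library of mouse liver cells from a diet and oncogene tumour model. The cells were chosen by their own UMI counts, H19 included. A cell was a member if its barcode had at least 500 genes, at least 10000 unique molecular identifiers (UMIs, counts of captured RNA molecules) and at most 30% mitochondrial UMIs. It also needed at least 100 Alb UMIs per 10000, under 2 UMIs per 10000 of the leukocyte, endothelial and Kupffer cell genes Ptprc, Stab2, Clec4f and C1qa together, under 2 UMIs of the injury-associated surface gene Plet1, and at least 2 H19 UMIs. The rule gave 131 cells, out of 2566 cells that passed all criteria but the one on H19, 18316 barcodes in the library and 27010 in both libraries of the series. The cells set against them were the 2229 cells of the same gate without an H19 UMI. The remaining 206 gated cells had 1 H19 UMI.

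The library, called the DDC and cMet library here, pooled primary cells obtained by liver perfusion from Sox9-CreERT2:Rosa26-mTmG mice, taken 5 months after DDC diet and cMet induction through HTVi, and from wild-type mice at day 0 on normal diet. The second library, called the DDC library, pooled cells from Sox9-EGFP mice after 2 weeks of DDC diet and from wild-type mice at day 0. There were 2 mice per time, all labelled C57BL/6J;129S6/SvEvTac, and DDC is a diet that disturbs haem synthesis and injures bile ducts. The barcodes do not separate mice, genotypes or times, so each library is 1 sample, a gated cell cannot be assigned to a tumour-model or a wild-type mouse, and no test over replicates was possible. The tdTomato reporter of the mTmG allele does not help: it had 2 UMIs in the whole library and was found in 0 of 131 H19-positive and 0 of 2229 H19-zero cells, which allow shares of up to 2.29% and 0.135% of cells with a UMI (3 cells of the number counted) and say nothing of how many cells carry the allele.

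H19 is a long non-coding RNA transcribed from the maternal allele of an imprinted domain that it shares with Igf2, a fetal growth factor gene expressed from the paternal allele. It is abundant in fetal liver, is silenced after birth, and can return in regenerating liver and in liver tumours. In the mouse, the repressor Zhx2 (the Afr1 locus) takes part in the postnatal silencing of H19, Afp and Gpc3. Tff3, named with H19 as a marker of these cells, encodes a small secreted trefoil peptide best known from mucus-producing epithelium.

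The H19 gene lies on the minus strand at chr7:142575529-142578143 (GRCm38), and its annotated transcript joins 5 exons into 2286 bases. Exon 1 holds the hairpin of the microRNA Mir675 at chr7:142577064-142577147, printed first because it is the part of H19 with a known separate product, with both mature miRNAs in capitals. In the mature sequences the capitals mark the seed, bases 2 to 8, and their seeds differ from each other. The last 80 bases of the transcript, in exon 5 at chr7:142575529-142575608, are shown because the reads of a 3′ library of polyadenylated RNA come from this end of a transcript, and their capitals mark the AATAAA polyadenylation signal, 16 bases before the annotated end. Mature miRNAs carry no poly(A) tail and were not measured. The miRNA sequences are RefSeq's (GRCm38.p6) and the transcript end was read from the reference genome, all 5′ to 3′ on the strand of the gene.
Mir675 hairpin: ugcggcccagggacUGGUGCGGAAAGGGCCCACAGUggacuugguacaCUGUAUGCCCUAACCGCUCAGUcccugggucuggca
mmu-miR-675-5p: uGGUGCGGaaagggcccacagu
mmu-miR-675-3p: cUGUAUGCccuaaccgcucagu
H19 3′ end: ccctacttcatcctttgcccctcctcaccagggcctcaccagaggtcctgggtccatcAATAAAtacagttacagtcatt

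The H19 counts that chose the members are given here as a description. H19-positive cells made up 5.11% of the gate (95% Clopper-Pearson interval 4.29 to 6.03, which covers counting error only, as do all intervals given here). Their H19 counts ran from 2 to 580 UMIs with a median of 36, or 11.2 per 10000 UMIs, and are described in a lower and a higher part. Between 2 and 9 UMIs there were 37 cells, of which 20 had exactly 2, and 94 cells had 10 or more, including 55 with 50 or more. The 94 cells held 7514 of the 7640 H19 UMIs (98.4%), and the 10 highest cells 36.0%. Nearly all H19 RNA of the group was thus in cells far above the threshold.

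**Figure D1:**
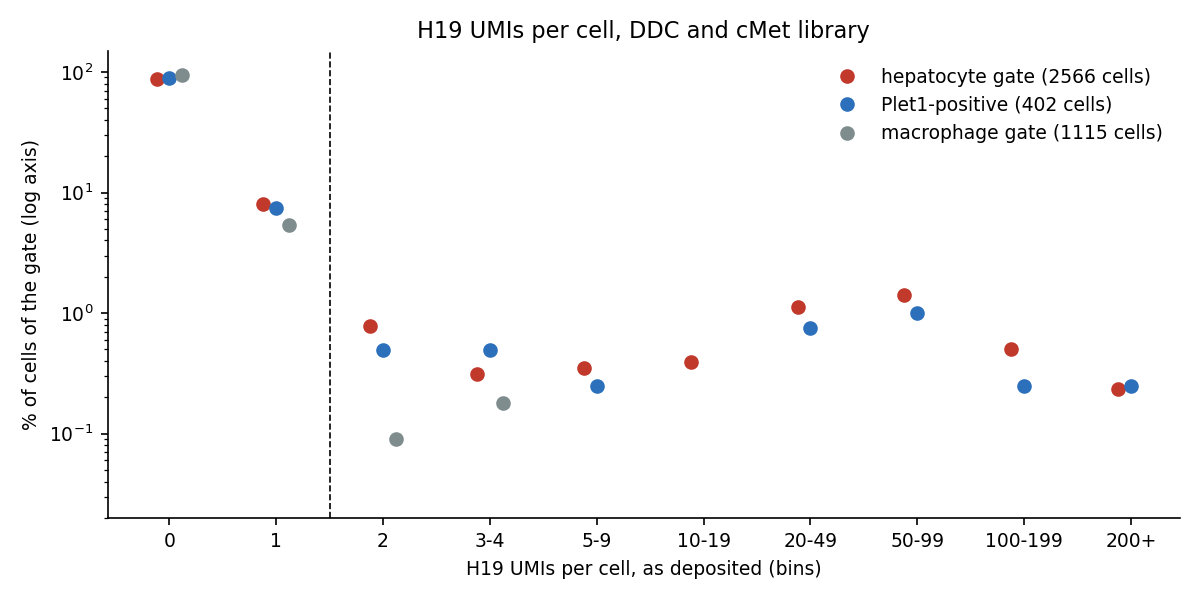
H19 UMIs per cell in bins (x axis) against the percentage of cells (y axis, log scale) for hepatocyte-gate, Plet1-positive and macrophage-gate cells of the DDC and cMet library. Points at 0 are not drawn, the dashed line is the threshold of 2 UMIs, and macrophage-gate cells end at 4 UMIs. The share of hepatocyte-gate cells per bin is higher again between 20 and 99 UMIs, where the bins are wider, so it is not a rise per UMI.

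Free RNA in the droplets sets how low counts can be read. In 1115 cells of a macrophage gate, which should not express H19, 60 (5.38%) had 1 H19 UMI, 3 had 2 or more, the highest had 4 and 0 had 5 or more (up to 0.269%). These cells were shallower, with a median of 15353 UMIs against 37826 in H19-positive and 35494 in H19-zero hepatocytes. A single H19 UMI, found in 206 gated cells (8.03%), is therefore read as background here, and a count of 2 to 4 can be background too. Thinned to 10000 UMIs each, 102 gated cells (3.98%) and 0 macrophage-gate cells kept at least 2 H19 UMIs. The macrophage gate also held cells with markers of other types. Endothelial markers summed to 20 or more UMIs per 10000 in 218 of its cells, and stellate and fibroblast markers in 93. Whether such cells have H19 of their own was not tested.

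Apart from H19, the members had the markers of hepatocytes, in part because Alb was in the rule. They had a median of 434 Alb UMIs per 10000 against 435 in H19-zero cells, 5217 against 5018 genes and 9.73% against 11% mitochondrial UMIs, so the groups were of like depth. For all comparisons below, every cell was thinned to 10000 UMIs, UMIs were summed over a group and expressed as UMIs per 1000000 UMIs (CPM), and log2 ratios are H19-positive over H19-zero. Hnf4a, the master transcription factor of hepatocytes, had 173 CPM in H19-positive and 172 CPM in H19-zero cells. Of 17 hepatocyte transcription factors tested, 8 were higher and 9 lower, none by 2-fold, and the 15 hepatocyte markers had a median log2 ratio of -0.09, with Apoa1 at 0.25 and the tyrosine-degrading enzyme Tat at -0.64.

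Markers of other liver cells were low in both groups. For Kupffer, macrophage and endothelial markers this was set in part by the gate, which limited Ptprc, Stab2, Clec4f and C1qa, and the macrophage gate was chosen on Clec4f, C1qa and Cd5l. Kupffer cell and macrophage markers summed to a mean of 1.84 UMIs per 10000 in H19-positive and 1.74 in H19-zero cells, with at most 11 and 20 in a cell, against 293 in the macrophage gate. For endothelial markers the means were 0.710 and 0.986, and for stellate markers 0.229 and 0.371, with Col1a1, Col1a2, Acta2, Pdgfrb, Des and Rgs5 at 0 in the H19-positive cells. Cholangiocyte and progenitor markers had means of 5.35 and 4.08 and at most 57 and 261 in a cell, with Krt19, Krt7, Cftr and Cldn4 among those at 0 in H19-positive cells. Of the 131 cells, 0 shared a barcode with the other library.

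Over all genes few passed 2-fold. Among 10068 genes with at least 50 UMIs over both groups, 112 (1.11%) were at least 2-fold higher and 417 (4.14%) at least 2-fold lower in H19-positive cells. Among the 2434 of them with at least 50 CPM in a group, 2 (0.0822%) were 2-fold higher and 14 (0.575%) 2-fold lower. Genes near the minimum can have few UMIs in the smaller H19-positive group, where counting error alone can pass 2-fold. The part of counting error in the 2-fold counts, and in the excess of lower genes, was not separated here or below. The median log2 ratio of the 10068 genes was -0.01, with 49.6% higher and 50.4% lower by any amount.

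Tff3 and Ptgds were among the 15 highest genes. Tff3 had 307 CPM (278 to 338) in H19-positive cells and 170 CPM (165 to 176) in H19-zero cells, a log2 ratio of 0.85 (0.70 to 1.0). Per cell it ran from 0 to 25 UMIs among 10000 with a median of 1 in H19-positive cells, and from 0 to 39 with a median of 0 in H19-zero cells. The per-cell ranges overlapped, so Tff3 was neither present in every member nor limited to the members.
A Tff3 UMI was found in 61.1% of H19-positive cells and 39.3% of H19-zero cells after thinning, and in 75.6% and 58.3% as deposited, beside 8.16% and 12% in the macrophage gate. Among H19-zero cells with little Mup3, described further on, the shares were 52.7% after thinning and 74.1% as deposited. Among Plet1-positive cells, also described further on, they were 48.5% and 73.1%, so as deposited the shares were close to that of the members. Ptgds, a prostaglandin synthase, had 62.6 CPM (49.8 to 77.7) against 21.5 CPM (19.6 to 23.5), a log2 ratio of 1.54 (1.19 to 1.88). A single cell held 20.7% of the Ptgds UMIs of the H19-positive group.

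Other genes of varied function were higher too. Fabp5, an intracellular fatty acid carrier, had 180 CPM in H19-positive and 98.7 CPM in H19-zero cells (log2 ratio 0.87, 0.67 to 1.06). Angptl8, a hepatic regulator of lipoprotein lipase, was at 0.76 (0.52 to 0.99), and Lpl, the lipase itself, at 0.55 (0.38 to 0.70). The list of lipid droplet and lipid uptake genes did not share this direction: 4 of 13 were higher and 9 lower, with a median of -0.13, including Plin2 (-0.29, -0.51 to -0.07), Fabp1 (-0.21, -0.24 to -0.17) and Fabp4 (-2.32, -5.38 to -0.45, with 2 UMIs in H19-positive and 170 in H19-zero cells). Endothelial markers summed to 20 or more UMIs per 10000 in 7 H19-zero and 0 H19-positive cells. The part of those cells in the value of Fabp4 was not tested. The tetraspanin Cd63 of late endosomes had 228 CPM against 139 CPM (0.72, 0.54 to 0.89). Its relative Tspan8 was at 0.67 and Mfge8, a secreted glycoprotein that binds dying cells, at 0.88. Neither was highest in the members: the upper quartile of Tspan8 UMIs per thinned cell was 2 in H19-positive and 4 in Plet1-positive cells. For Mfge8 it was 1 and 3. In low-Mup3 H19-zero cells these quartiles were 2 and 1. Of the 15 highest genes, 12 were higher than in Plet1-positive cells and 3 lower. The flavin monooxygenase gene Fmo2 (0.96), the retinol dehydrogenase gene Rdh9 (0.70) and the sterol synthesis gene Nsdhl (0.67) were also among the 15 highest.

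These genes were also higher in the cells with much H19, whereas 5 others were so mainly in the cells with little. In the 94 cells with 10 or more H19 UMIs, 13 of the 15 highest genes were higher than in H19-zero cells, where 51.8% of all genes with 50 CPM were. These 94 are among the cells on which the 15 genes were chosen, so that count was largely set by the choice and is a description. The log2 ratios in the 94 cells were 1.75 for Ptgds, 1.08 for Fabp5, 0.98 for Tff3 and 0.86 for Cd63. The tubulin genes Tubb4b (1.26) and Tubb2a (0.78), the glutathione transferase genes Gstm2 (0.91) and Gstm3 (0.67), and the P450 gene Cyp2c39 (0.75) had larger ratios in the 37 cells with 2 to 9 H19 UMIs than in the 94. The ratios of Tubb2a were 1.41 and 0.43, and those of Cyp2c39 1.42 and 0.38.
Tubb4b had 376 CPM in those 37 cells, against 88.3 CPM in the 94 and 70.9 CPM in H19-zero cells. For Gstm3 the values were 1068, 184 and 272 CPM, so that its ratio over H19-zero cells turned to -0.56 in the 94 cells, and that of Gstm2 was -0.03. Cyp1a2, a P450 of the zone around the central vein, had 716 CPM at 2 to 9 UMIs and 205 CPM in H19-zero cells. At 10 to 49 UMIs and at 50 or more it had 172 and 136 CPM. With 37 cells these values rest on few: 1 cell held 17.3% of their Tubb4b and 19.2% of their Gstm3 UMIs. Without thinning, where deep cells weigh more, the ratios of Tubb4b, Gstm2 and Gstm3 over all 131 cells were 0.40, 0.35 and 0.07. Counts within the Gstm, Cyp2c, Cyp4a12 and Mup families, whose members are near-identical, are uncertain, since the authors' counting could split them.

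**Figure D2:**
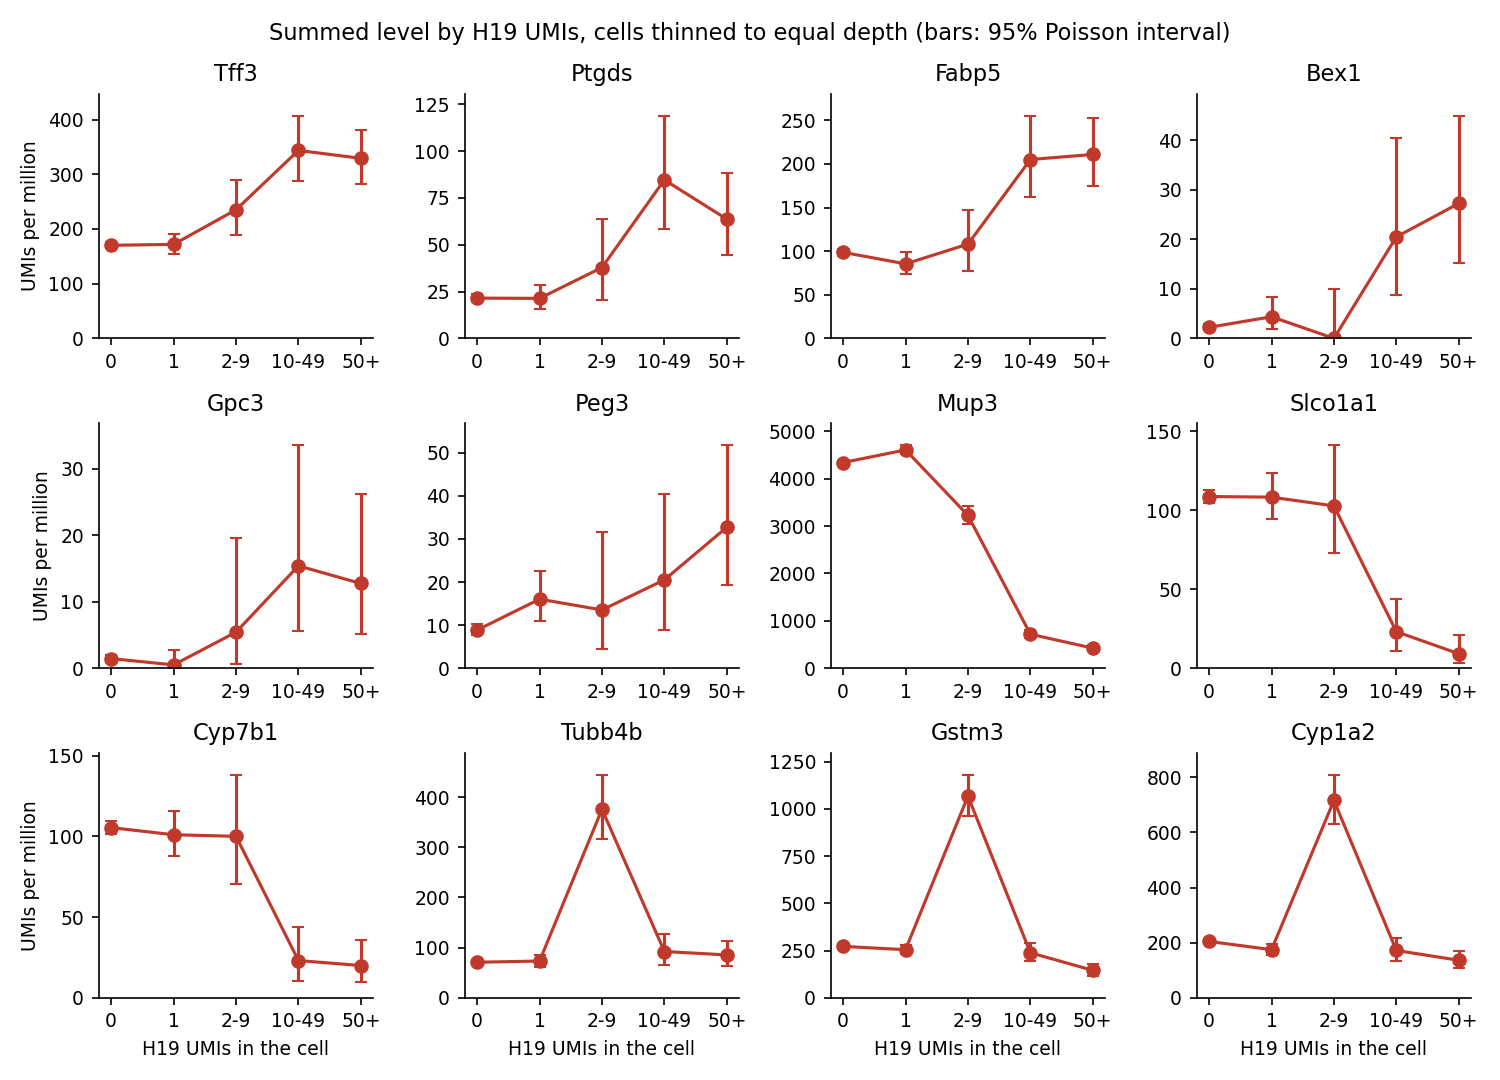
Summed level of 12 genes in CPM (y axes, from 0) in gated cells with 0, 1, 2 to 9, 10 to 49 and 50 or more H19 UMIs (x axis), each cell thinned to 10000 UMIs, bars showing 95% Poisson intervals. Tff3, Ptgds, Fabp5, Bex1 and Gpc3 are higher and Mup3, Slco1a1 and Cyp7b1 lower from 10 UMIs on, whereas Tubb4b, Gstm3 and Cyp1a2 peak at 2 to 9 UMIs.

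Just outside the threshold, cells with 1 H19 UMI had 172 CPM of Tff3 and 4606 CPM of Mup3, beside 170 and 4340 CPM at 0 UMIs. Just inside it, the 20 cells with 2 UMIs had 265 CPM of Tff3 and 3720 CPM of Mup3. From 10 to 49 UMIs the values were 344 and 715 CPM, and at 50 or more 329 and 422 CPM. The cyclin gene Ccnd1, which drives entry into the cell cycle, stood at 261, 247, 270, 251 and 438 CPM over the bins of 0, 1, 2 to 9, 10 to 49 and 50 or more UMIs, and was thus higher in the last bin. The bins use H19 UMIs as deposited and so also differ in depth, with medians of 24906 UMIs at 10 to 49 and 42810 at 50 or more. The part of depth in the Ccnd1 values was not tested. Over all members the log2 ratio of Ccnd1 was 0.36 (0.22 to 0.50), and among cells with little Mup3, described further on, it was -0.03.

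Igf2 and Dlk1 were at or near 0 UMIs, while other imprinted and oncofetal genes varied in sign and size. Igf2 had 0 UMIs in both groups and 10 in the whole library, and Dlk1, another paternally expressed growth regulator, had 0 UMIs in H19-positive and 1 in H19-zero cells. Of 24 genes of the imprinted network, 9 had enough UMIs, with 6 higher, 3 lower and a median log2 ratio of 0.19. Peg3, an imprinted zinc finger gene, had 23.7 CPM (16.1 to 33.6) in H19-positive cells and 8.84 CPM (7.65 to 10.2) in H19-zero cells, 1.42 on the log2 scale (0.82 to 1.97). The proteoglycan gene Dcn (-1.26) was the lowest of the 9. Dcn is also one of the stellate and fibroblast markers. These summed to at most 3 UMIs per 10000 in an H19-positive cell and to as many as 211 in an H19-zero cell, with 20 or more in 4 H19-zero cells. The part of those cells in the value of Dcn was not tested. Kcnq1ot1, which is antisense to Kcnq1, was at 0.34 (-0.11 to 0.76), and Igf2r at 0.28 (-0.29 to 0.80), both with intervals that include 0.

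Bex1 and Gpc3 differed more, at low counts. Bex1, a gene for a small adaptor protein, had 23 UMIs in H19-positive and 50 in H19-zero cells, or 17.6 and 2.24 CPM, a log2 ratio of 2.97 (2.19 to 3.71). All 23 UMIs were in cells with 10 or more H19 UMIs, and 1 cell held 26.1% of them. As deposited, 24 of 131 H19-positive cells (18.3%) and 105 of 2229 H19-zero cells (4.71%) had a Bex1 UMI, beside 0.987% in the macrophage gate.
After thinning the shares were 9.92%, 1.79% and 0.448%. Gpc3, a cell surface proteoglycan gene used as a marker of human hepatocellular carcinoma, had 15 and 32 UMIs, or 11.5 and 1.44 CPM. That is 3.0 on the log2 scale (2.0 to 3.92), with 47 UMIs in all and so just under the minimum of 50. A Gpc3 UMI was in 9.92% of H19-positive and 2.42% of H19-zero cells as deposited, in 6.11% and 0.987% after thinning, and in 0.448% and 0.269% of the macrophage gate.

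Afp, the classical fetal liver protein gene, was not separable: 6.87 CPM in H19-positive and 4.62 CPM in H19-zero cells, 0.57 on the log2 scale with an interval of -0.60 to 1.55. The other oncofetal genes with enough UMIs were Scd2 (0.95), Ahsg (0.21) and Spink1 (-0.0022). Zhx2 had 4 UMIs in H19-positive and 148 in H19-zero cells, 3.05 and 6.64 CPM, a log2 ratio of -1.12 whose interval of -3.02 to 0.27 includes 0. Of the 13 tumour hepatocyte markers with enough UMIs, 10 were higher and 3 lower, with a median of 0.57 against -0.01 for all genes. Besides Bex1, Peg3, Cd63 and Tspan8 they include the iron carrier gene Lcn2 (0.59, 0.48 to 0.69). The stem cell marker gene Prom1 was at 1.09 (-0.43 to 2.32) and the carbonyl reductase gene Cbr3 at -1.30 (-3.60 to 0.28). Met, the receptor gene used to make the tumours, had 44.3 and 38.2 CPM (0.21, -0.20 to 0.60), and whether an introduced copy adds to these counts was not tested. Among low-Mup3 cells, described further on, 8 of the 13 tumour hepatocyte markers were higher and 5 lower, with a median of 0.34. Median UMIs per thinned cell in H19-positive, low-Mup3 H19-zero and Plet1-positive cells were 3, 3 and 4 for Lcn2. For Cd63 they were 2, 1 and 3. As deposited, a Bex1 UMI was in 18.3% of H19-positive and 10.9% of Plet1-positive cells.

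The lower genes were led by the male-biased programme of the liver. Major urinary proteins (Mup genes), which carry pheromones, and several P450 and transporter genes are higher in male mouse liver because of pulsatile growth hormone. Of 17 such genes tested, all 17 were lower in H19-positive cells and 13 at least 2-fold, with a median log2 ratio of -1.28, where 4.14% of all genes were 2-fold lower. Mup3 and Mup17, which are not in that list, were among the lowest genes as well. Mup3 had 1301 CPM (1240 to 1364) in H19-positive and 4340 CPM (4313 to 4367) in H19-zero cells, -1.74 on the log2 scale. Mup20 had 1990 and 4448 CPM (-1.16, -1.22 to -1.10).
Mup17 (-3.06) had 8 UMIs in H19-positive and 1136 in H19-zero cells, and Mup11, Mup7, Mup21 and Mup1 were at -1.54, -1.54, -1.52 and -1.39. The uptake transporter gene Slco1a1 had 39.7 CPM against 109 CPM (-1.45, -1.88 to -1.06), the oxysterol hydroxylase gene Cyp7b1 was at -1.28 and Cyp4a12a at -1.09. Bcl6, a repressor with male-biased expression, had 4 and 252 UMIs (-1.89, -3.78 to -0.51). In cells with 10 or more H19 UMIs the median of the 17 genes was -1.92, and 15 were 2-fold lower, against 5.83% of all genes, with Slco1a1 at -2.87 and Mup3 at -3.0.

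Female-biased genes had the opposite sign in most cases. Of 10 tested, 8 were higher, with a median of 0.36, among them Fmo2 (0.96), Ntrk2 (0.76) and the peroxisomal transporter gene Abcd2 (0.69). Per thinned cell, Fmo2 had a median of 0 and an upper quartile of 1 in H19-positive cells. Both values were the same in low-Mup3 H19-zero cells, described further on. Cyp17a1 was at -1.27 (-4.34 to 0.63). The strictly female P450 genes Cyp2b13, Cyp3a44, Cyp2c40 and Cyp2c69 had 0 UMIs in H19-positive cells. A Y-linked UMI was found in 93.9% of H19-positive and 94.2% of H19-zero cells, and an Xist UMI in 0 of 131 and in 13 of 2229.

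**Figure D3:**
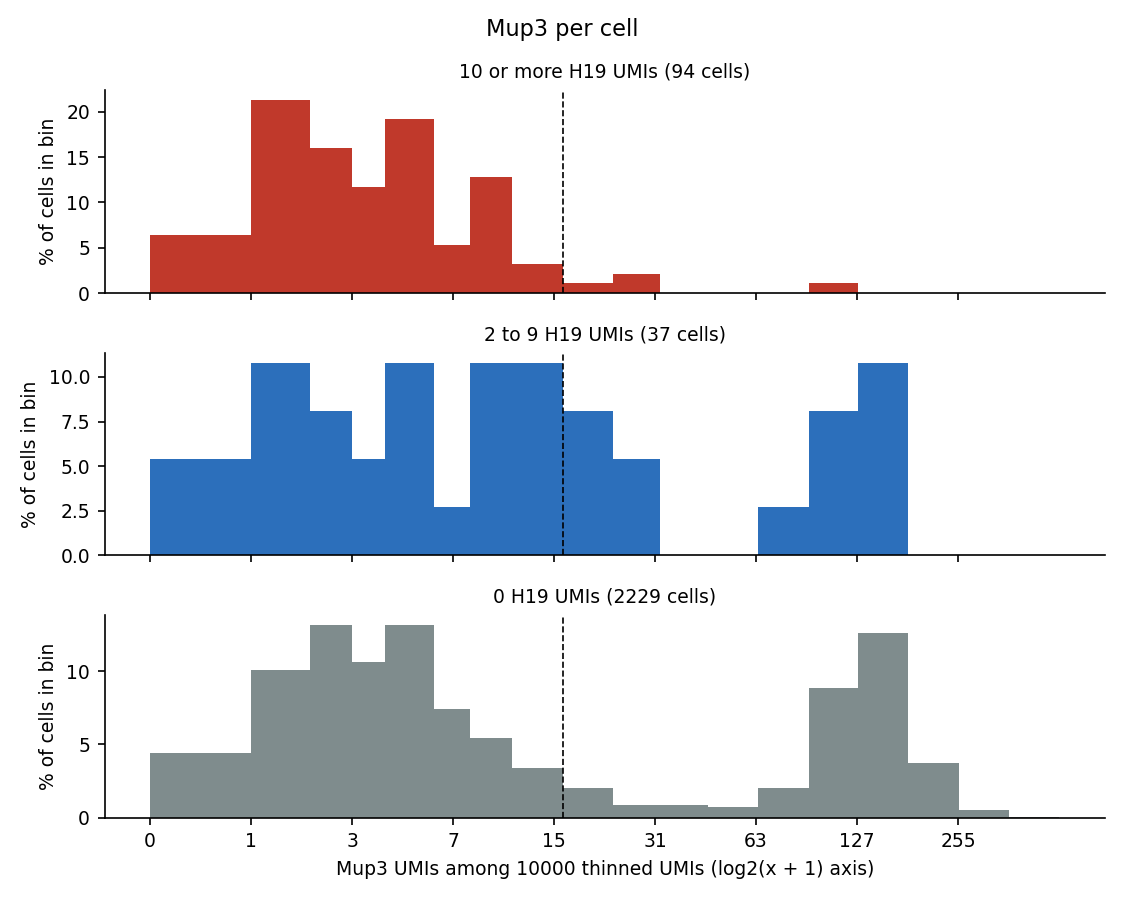
Distribution of Mup3 UMIs among 10000 thinned UMIs per cell (x axis, log2 of the value plus 1) as percentage of cells per bin (y axis) for cells with 10 or more, 2 to 9 and 0 H19 UMIs. The dashed line marks 16 UMIs: 90 of 94, 24 of 37 and 1508 of 2229 cells lie below it, and the H19-zero cells have a second peak to its right.

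Mup3 divided the gated cells into a low and a high part, and H19-positive cells were mostly in the low part. Under 16 Mup3 UMIs per 10000 were found in 114 of 131 H19-positive cells (87.0%, 80 to 92.3) and in 1508 of 2229 H19-zero cells (67.7%, 65.7 to 69.6). Low Mup3 was not particular to H19-positive cells: 374 of 402 Plet1-positive cells, described further on, were under 16 too. The cut at 16 was set after seeing the values, and 23.7% of H19-positive and 11.8% of H19-zero cells had 8 to 31 UMIs. Macrophage-gate cells, which should not express Mup3, had 316 CPM of it, beside 414 CPM in low-Mup3 H19-positive cells and 394 CPM in low-Mup3 H19-zero cells. The part of free RNA in these low levels was not tested.
Among low-Mup3 cells alone, the lower genes were closer to 0. Mup3 set the cut, so its own value there (0.07) is fixed by the choice of cells, and whether the cut also shapes the other Mup genes was not tested. Of the other 14 lowest genes 13 had enough UMIs, 10 were lower and 3 higher, and their median was -0.24, where 56% of all genes with 50 CPM were lower and 44% higher. Mup1 was there at 1.16, Mup7 at 0.43 and Cyp7b1 at 0.17. Slco1a1 was at -2.0 (-3.01 to -1.15) and Mup20 at -0.87. Of the 15 highest genes 14 were higher, with a median of 0.44, including Ptgds at 1.49, Fabp5 at 0.68, Tff3 at 0.45 and Cd63 at 0.42. The highest and lowest genes were chosen on groups that include these low-Mup3 cells, so their signs here are not independent of that choice. Bex1 was at 2.92, Gpc3 at 2.67 and Peg3 at 1.25. Whether the share of low-Mup3 cells follows the mice, the treatment or the cells themselves cannot be told apart in a pooled library.

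**Figure D4:**
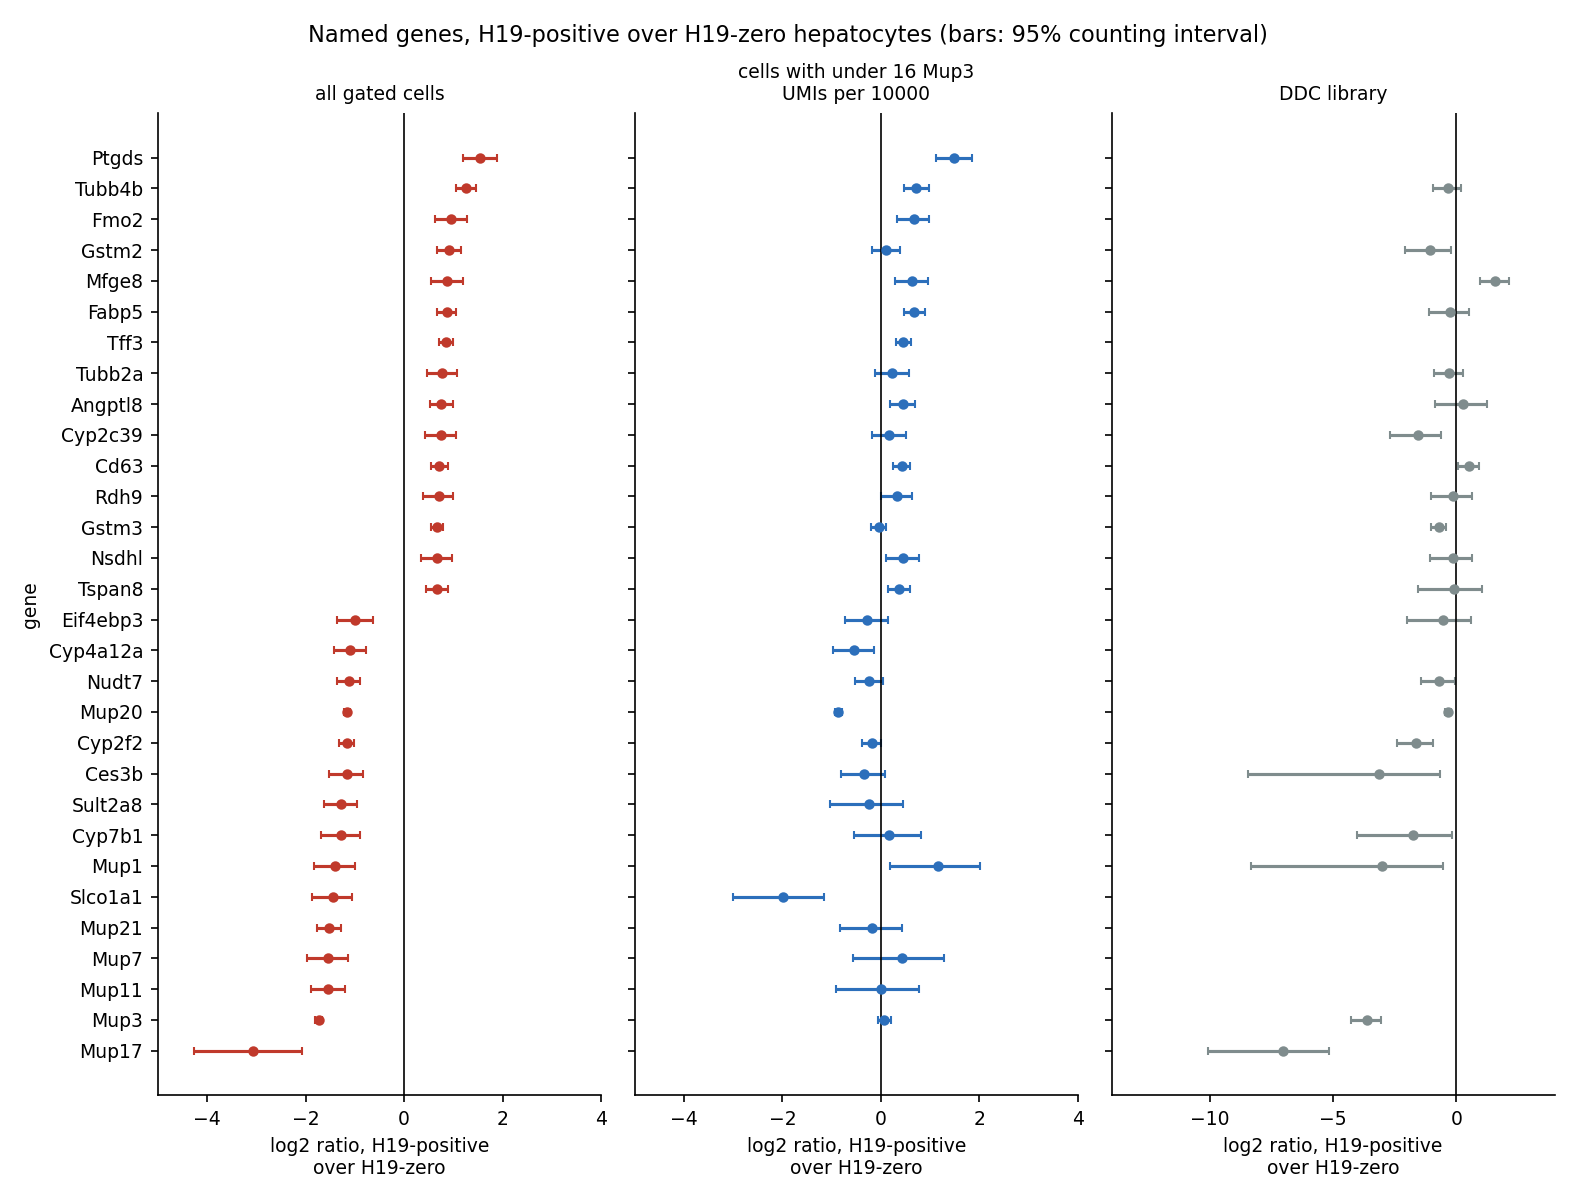
Log2 ratios of the 15 highest and 15 lowest genes, H19-positive over H19-zero (x axes, 95% counting intervals), in all gated cells (left), in low-Mup3 cells (middle) and in the DDC library (right, with a wider axis). In the middle panel most of the lowest genes lie closer to 0, Mup3 by the choice of cells, while Slco1a1 lies farther from it (-2.0), and points are absent where a gene had under 50 UMIs or 0 in a group.

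Metabolic genes of the zone around the portal vein were slightly lower. Of 17 periportal genes 15 were lower, with a median of -0.32, and the P450 gene Cyp2f2 had 290 CPM in H19-positive and 650 CPM in H19-zero cells (-1.16, -1.31 to -1.02). All 13 genes of gluconeogenesis and amino acid breakdown were lower, by a median of -0.32, with Got1 at -0.71 and Tdo2 at -0.53. Of 8 urea cycle genes 7 were lower, with Cps1 at -0.47 and Arg1 at -0.44, against Nags at 0.11. Among low-Mup3 cells these medians were -0.06, -0.18 and -0.13. None of the 13 or the 8 genes reached 2-fold.
Of 13 pericentral genes 7 were higher and 6 lower, with Glul at -0.69 and Cyp2e1 at -0.54. Oat (0.69) and Cyp1a2 (0.60) were at -1.15 and -0.44 in cells with 10 or more H19 UMIs. The epidermal growth factor receptor gene Egfr had 95.4 and 151 CPM (-0.66, -0.93 to -0.40), and was at -0.09 among low-Mup3 cells.

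Acute phase and sterol genes were more often higher than lower over all members. Of 22 acute phase genes 14 were higher, with a median of 0.12, including haptoglobin (Hp, 0.37), haemopexin (Hpx, 0.36), ceruloplasmin (Cp, 0.33), Apcs (0.57) and Lbp (0.42). Saa4 (-0.58) and Saa3 (-0.78, -2.12 to 0.29) were lower, and the inducible Saa1 was at -0.08. Among low-Mup3 cells Saa4 was at 0.31. Of 21 genes of cholesterol synthesis and uptake 15 were higher, with a median of 0.17, among them Nsdhl, Fdft1 (0.56) and Fdps (0.45). Among low-Mup3 cells that median was -0.07, with 7 higher and 14 lower.
All 6 cholangiocyte and progenitor genes with enough UMIs were higher, with a median of 0.54. They include Cldn7 (1.83, 0.68 to 2.83; 10 and 48 UMIs), Prom1, Tspan8, Spp1 (0.28, 0.14 to 0.42) and Sox9 (0.20, -0.43 to 0.78). The defining duct keratins Krt19 and Krt7 were at 0 in these cells. The summed level of such markers was also higher in the H19-positive cells, as given above, and its part in this was not tested.

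**Figure D5:**
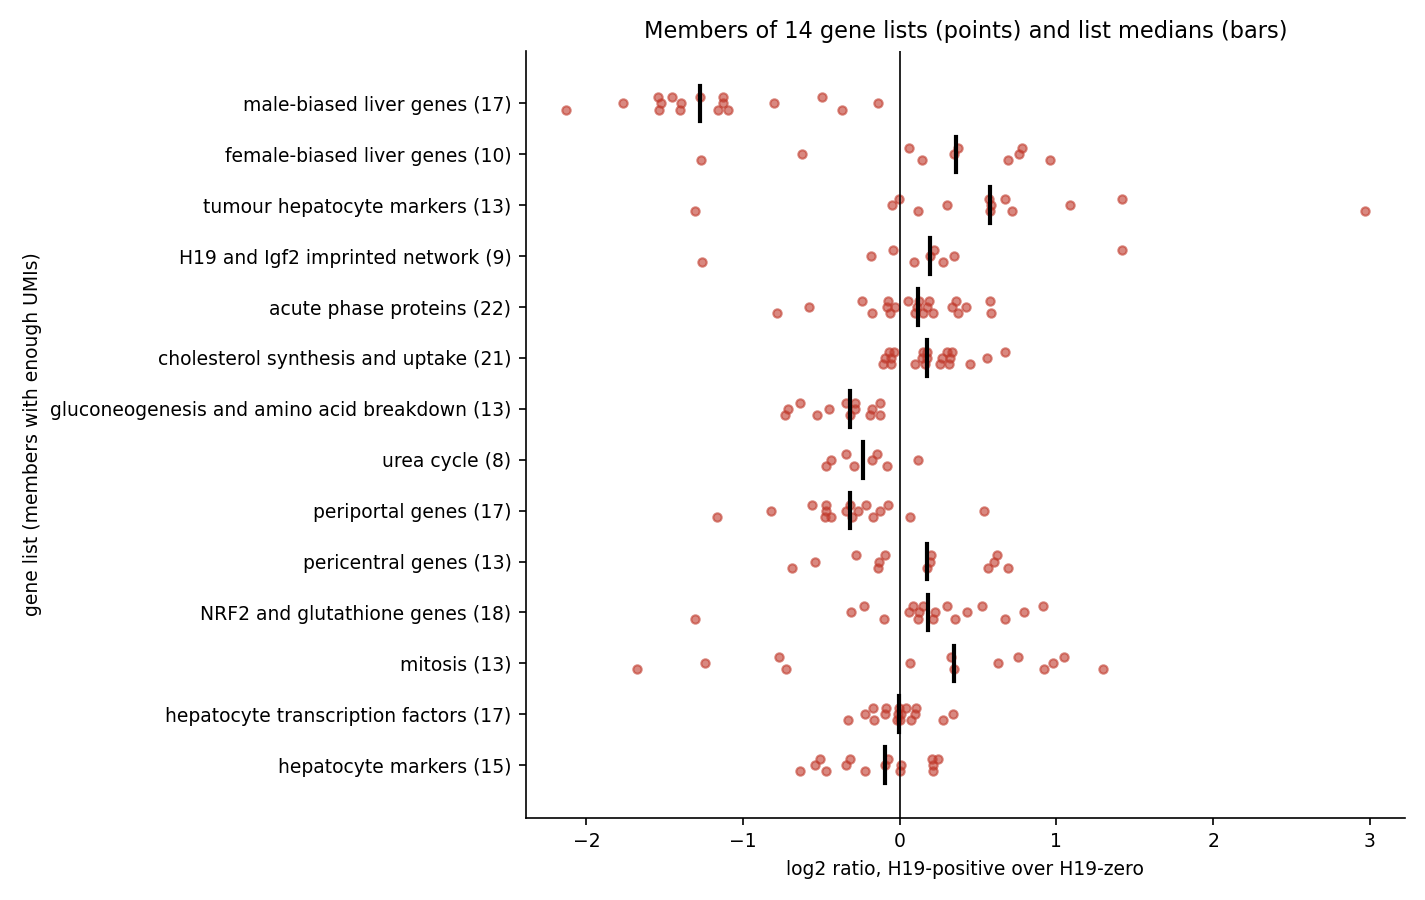
Log2 ratios, H19-positive over H19-zero (x axis), of the members with at least 50 UMIs of 14 gene lists (points, number in brackets) with list medians (bars). The male-biased list lies wholly below 0 with a median of -1.28, and the tumour hepatocyte markers have a median of 0.57.

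Cell division genes depended on which members were counted. The mitosis list had a median of 0.34 over all members, -0.06 in cells with 10 or more H19 UMIs and 1.13 in cells with 2 to 9, and -0.60 over all members without thinning. Among low-Mup3 cells it was -0.34, with 5 of 13 genes higher. At least 3 mitosis UMIs were found in 15 of 131 H19-positive cells (11.5%, 6.55 to 18.2) and 181 of 2229 H19-zero cells (8.12%, 7.02 to 9.33), and the intervals overlap. The shares were 6.38% at 10 or more and 24.3% at 2 to 9 UMIs. The NRF2 and glutathione genes showed the same division, with medians of 0.18 over all members, 0.03 at 10 or more and 0.39 at 2 to 9 UMIs, and -0.05 among low-Mup3 cells.

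The injured hepatocytes of the same library were marked by Plet1. Of 402 Plet1-positive cells, 14 (3.48%, 1.92 to 5.77) had at least 2 H19 UMIs and 9 had 10 or more. The interval overlaps that of the 5.11% (4.29 to 6.03) in the gate without Plet1. These 14 cells were kept in the Plet1-positive group for the comparison. Between H19-positive and Plet1-positive cells, 55 of 7451 genes (0.738%) were at least 2-fold higher and 465 (6.24%) at least 2-fold lower, and the median of all genes was -0.20, so values here are read beside that shift.
The cysteine-rich calcium-binding protein gene S100a6 had 7.63 CPM in H19-positive and 235 CPM in Plet1-positive cells (-4.94, -6.01 to -4.06), and the chemokine gene Ccl2 12.2 and 198 CPM (-4.02). Psca, Tmsb10, Cpe and Sox4 were at -3.72, -3.67, -2.54 and -2.35. Of 17 keratin, cytoskeleton and annexin genes 14 were lower, 9 of them 2-fold, where 70.4% of all genes were lower, and Spp1 was at -2.0. On the other side stood hepatocyte functions: Cyp2c39 (2.34), the antimicrobial peptide gene Leap2 (1.76), G6pc, the last enzyme of glucose release (1.47), and the bile acid uptake gene Slc10a1 (1.36). All 8 urea cycle genes were higher, with a median of 0.44, where 29.6% of all genes were higher. Male-biased genes had a median of 0.50 over all members and -0.52 for cells with 10 or more H19 UMIs, and Tff3 was at 0.90.

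In the DDC library the same gate held 461 cells, of which 18 (3.90%, 2.33 to 6.10) had at least 2 H19 UMIs, 14 of them 10 or more, and 427 had 0. Library, genotype, diet and time cannot be told apart between the libraries, and the shares' intervals overlap. Mup3 was under 16 per 10000 in 18 of 18 H19-positive and 382 of 427 H19-zero cells. Of the 15 genes lowest in the first library, 14 had enough UMIs here, and 14 were lower, 10 at least 2-fold, where 51.4% of 6850 genes were lower by any amount and 11.3% by 2-fold. Mup7, Mup21, Slco1a1, Cyp4a12a and Sult2a8 had 0 UMIs in the 18 cells, so their values were computed at the floor of 3 UMIs. The male-biased list had 10 of 12 genes lower and a median of -0.87.
Mup3 was at -3.63 (-4.29 to -3.04) and Cyp2f2 at -1.63 (-2.41 to -0.94). Of the 15 highest, 12 had enough UMIs, 3 were higher and 9 lower, where 46.9% of all genes were higher, with Mfge8 at 1.57 (0.95 to 2.15), Cd63 at 0.51 (0.08 to 0.92) and Fabp5 at -0.24 (-1.12 to 0.52). Tff3 had 0 UMIs in the 18 H19-positive and 48 in the 427 H19-zero cells, or 0 and 11.2 CPM, so Tff3 was low in this library's hepatocytes with and without H19. Peg3 had 5 and 24 UMIs, 27.8 and 5.62 CPM (2.31, 0.56 to 3.72), and Gpc3 2 and 5 UMIs, both under the minimum.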

How the data were processed

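Droplet 3′ single-cell RNA libraries (10x Genomics, v3 chemistry per the labels' protocols) of 2 pooled samples were analysed. The authors deposited raw UMI counts per gene and barcode, and the names of genes and barcodes as text (other). Build mm10, Seurat 4.0.1 and Cell Ranger 6.0.1 are listed in the submitters' processing notes, whereas the matrix headers give version 5.0.1 of the last. The sources used here do not say how barcodes were chosen. The libraries held 186997180 (DDC and cMet) and 104523363 (DDC) UMIs. Of the barcode sequences 50 occurred in both libraries, 4 in the gate and 0 among the members. No doublet caller was run. Leaving out the deepest 5% of gated cells was an alternative.

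Each gated cell was thinned to 10000 UMIs without replacement with a fixed seed. UMIs were summed per group to CPM with exact Poisson intervals, and log2 ratios have exact conditional intervals, all at 95% and for counting error only: UMIs of 1 cell are not independent, and nothing measures the spread between mice. With 1 library per group no p-value was computed. A gene was tested, meaning compared, at 50 UMIs or more over both groups. Where a group had 0 UMIs, a floor of 3 stood in for its sum. The macrophage gate needed at least 5 UMIs per 10000 of Clec4f, C1qa and Cd5l and under 100 of Alb.

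Named genes were the 15 with the highest and the 15 with the lowest ratio at 50 CPM or more in a group (8 and 8 against Plet1-positive cells), without mitochondrial, ribosomal, unnamed and rule genes and genes over 3 times higher in the macrophage gate, for each list at most 4 genes by absolute ratio, and Tff3, Igf2, Afp, Gpc3, Dlk1, Met, Ccnd1, Xist and tdTomato. Other list members are named beside their list's count and were chosen after their values were seen. The members and the 52 gene lists were chosen with earlier results of these data known. The procedure was tested on simulated data. Alternatives were the gate, the H19 threshold, thinning, gene minimum and scaling. The splits at 10 H19 UMIs and 16 Mup3 UMIs and the limit of 50 CPM were chosen after seeing the data. Scripts ran in Python 3.11.15 with matplotlib 3.10.9, pandas 2.3.3, scipy 1.17.1 and numpy 2.4.6.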

Additional observations from a re-analysis of the deposited data

Results flagged for a closer look

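Glutathione transferase and P450 genes had opposite signs in the libraries. Gstm2 was at 0.91 on the log2 scale, H19-positive over H19-zero, in the DDC and cMet library and at -1.05 in the DDC library. Cyp2c39 was at 0.75 and -1.57, and Gstm3 at 0.67 and -0.72. The difference between the libraries was not tested, since each is 1 sample. In the DDC and cMet library the positive signs of Gstm2 and Gstm3 were absent in the 94 cells with 10 or more H19 UMIs, at -0.03 and -0.56. The part of the 37 cells with 2 to 9 UMIs in this was not tested beyond these values.

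H19 was also found outside the gate. Of 136 cells with 10 or more H19 UMIs among 12593 cells with at least 1000 UMIs, 42 lay outside the gate. Of these, 9 were in the Plet1-positive group and the others in no comparison of the report. By the first criterion that they failed, 9 had at least 2 Plet1 UMIs, 12 had under 10000 UMIs, 16 had too many UMIs of leukocyte, endothelial or Kupffer genes and 5 too few Alb UMIs. Macrophage-gate cells with as many H19 UMIs numbered 0.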

How the results depend on the processing

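No paired analysis was possible because each group is 1 library or a set of cells within it. The number of genes past 2-fold between H19-positive and H19-zero cells, 529, stayed within 1.5 times that value (468 to 768) under 18 of 23 alternatives. It was 130 with a threshold of 1 H19 UMI, 89 for depth-matched cells without thinning, 1555 with a gene minimum of 1 UMI, 129 with a minimum of 200 and 16 with at least 50 CPM in a group. With a minimum of 1 UMI, 64.8% of these genes were higher, against 21.2%. The minimum, the 50 CPM limit and the depth matching, which keeps fewer H19-zero cells, change how many genes are compared. How far this accounts for those shifts was not tested, nor was the cause of the shift at 1 H19 UMI. The share of gated cells in the group, 5.11%, was 13.1% at 1 UMI, 4.01% at 5, 3.66% at 10 and 3.98% on thinned counts, and between 4.33% and 5.33% otherwise. Of 721 values for 33 named genes, 514 stayed within their interval. The sign changed in 21 values of 11 genes. Of these, 12 values belong to 5 genes under 2-fold (Gstm2, Gstm3, Cyp2c39, Ccnd1 and Met) and 9 to genes past 2-fold, all 9 under settings chosen after seeing the data. Among low-Mup3 cells these were Mup3 (0.071, fixed by that cut), Mup7 (0.43), Mup1 (1.16) and Cyp7b1 (0.17). With at least 10 H19 UMIs as well they were Mup11 (0.23), Mup7 (0.51), Mup1 (0.97), Cyp7b1 (0.21) and Sult2a8 (0.0094). Of 1078 list medians 25 moved by 0.5 or more. The sign changed in 151, of 34 lists, and 0 of those lists had a median of 0.5 or more from 0. Alternatives on cells with a tdTomato UMI or with Xist and no Y-linked UMI were not run, as 0 gated cells qualified. Depth limits Bex1, Gpc3, Afp and Zhx2, which rest on 4 to 23 UMIs in the H19-positive cells.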

Other observations

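Further gene lists of the liver were compared between H19-positive and H19-zero cells. Values are log2 ratios of thinned counts, H19-positive over H19-zero, and genes were picked as the members with large ratios in their list. Of 18 genes of fatty acid oxidation and ketone synthesis 16 were lower, with a median of -0.11, among them the mitochondrial genes Cpt2 (-0.59, -1.06 to -0.16) and Hadhb (-0.40). The peroxisome proliferator target Cyp4a10 had 3 UMIs in H19-positive and 257 in H19-zero cells (-2.33, -4.62 to -0.77). Among lipid synthesis genes Fasn was at 0.42 (0.25 to 0.59) and Thrsp at -0.50 (-0.60 to -0.40), and the list had 6 genes higher and 9 lower.

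Of 17 immediate early genes 13 were higher, with a median of 0.19 and Junb at 0.49 (0.33 to 0.65), while among low-Mup3 cells the median was -0.06 and 7 were higher. The Notch target gene Hes1 was at 0.30 (0.18 to 0.42) over all members and near 0 among low-Mup3 cells. The stress-response gene Atf5 was at 0.57 (0.40 to 0.74) and at 0.36 among low-Mup3 cells, and the drug transporter gene Abcb1a at 0.80 (0.27 to 1.29) and 0.56. The zinc-binding metallothionein genes Mt1 and Mt2 were lower in both, at -0.27 and -0.62 over all members and at -0.55 and -0.83 among low-Mup3 cells. The interferon-stimulated gene Rsad2 had 3 and 375 UMIs (-2.88, -5.16 to -1.32), while the 20 genes of that list had 8 higher and 12 lower, with a median of -0.09 over all members, 0.05 in cells with 10 or more H19 UMIs and -0.32 among low-Mup3 cells. Complement and coagulation genes and apolipoprotein genes had medians of 0.04 and 0.01.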
